A study of Mus musculus with 8 samples.

Results

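The genes described here are 7 outputs of the circadian clock that encode transcription factors or transcriptional repressors: *Dbp*, *Tef*, *Hlf*, *Nfil3*, *Ciart*, *Bhlhe40* and *Bhlhe41*. They were found by matching the Ensembl identifiers of the deposited table to the gene symbols of the GENCODE mouse annotation, and all 7 are among its 55416 genes. Of these, 6 passed the filter on low counts and were tested together with 13147 genes in all. *Bhlhe41* did not pass and is described without a test.

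RNA-seq was performed on the dorsal epidermis of mice at postnatal day 4, with 4 libraries labelled as epidermis *Rora* knockout (RoraEKO) and 4 labelled wild type (control). RoraEKO mice were bred from mice with a floxed *Rora* gene and mice with a *K14-Cre* transgene, in which the keratin 14 promoter, active in basal keratinocytes, drives Cre recombinase. The progeny of recombined basal cells inherit the deletion. The study describes the controls as littermates, and their *Rora* alleles and Cre status are not given in the sources used here. The labels give no time of day and no strain for any library, and libraries are named here by the letter and number of their titles, A1, B1, C1 and C6 for control and A3, B4, C2 and C3 for RoraEKO. What the letters stand for is not given.

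*Rora* encodes the nuclear receptor RORα, which activates genes through ROR response elements, and the REV-ERB receptors repress genes through the same elements. In the core clock, CLOCK or NPAS2 pairs with BMAL1 and activates genes through E-boxes. DBP, TEF and HLF are the PAR bZIP factors, named for their region rich in proline and acidic amino acids, and they pass the daily rhythm on to other genes by activating them through D-boxes. NFIL3 binds D-boxes too and represses. CIART represses CLOCK and BMAL1, and BHLHE40 and BHLHE41 are basic helix-loop-helix repressors that bind E-boxes.

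The libraries held between 17286903 and 26705533 expected counts, and 3 counts corresponded to between 0.113 and 0.196 counts per 1000000 counts (CPM). *Rora* itself was 212 ± 66.6 CPM (SD, n = 4) in control and 196 ± 34.6 CPM (n = 4) in RoraEKO (adjusted p = 0.877, edgeR quasi-likelihood test), so the gene-level count does not separate the genotypes and the groups rest on the labels. Counts per gene cannot show whether the floxed part of the gene is missing. *Xist* was at 416 and 527 CPM in control C1 and C6 and at most 0.0546 CPM in the other 6 libraries, and the Y-linked gene *Ddx3y* was at 0 in C1 and C6 and between 15.7 and 24.1 CPM in the others. The log2 fold change without C1 and C6 is therefore given for each of the 7 genes. The summed level of 4 spinous keratinocyte markers was between 37615 and 64587 CPM in control and between 79712 and 100144 CPM in RoraEKO, and no other of the 14 marker lists separated the genotypes. Nearly all of this sum was *Krt1* and *Krt10*, while *Dsg1a* and *Dsc1* overlapped between the genotypes, and none of the 4 markers passed the test. Markers of dermal fibroblasts summed to between 1.37 and 10.4 CPM. Among the lists whose sums overlapped, all 5 erythroid markers had higher means in RoraEKO (median log2 fold change 1.94). All 5 melanocyte markers had lower means (median -0.84), and no marker of these 2 lists was called. The part of these shifts and of that in *Krt1* and *Krt10* in the values below was not tested. In whole epidermis fewer cells of a type and less RNA per cell cannot be told apart.

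Among the 7 genes, *Dbp* alone passed the cutoffs, a fold change over 1.5 and a Benjamini-Hochberg adjusted p under 0.05 over all genes tested. It was lower in RoraEKO, and no gene of the 7 was called higher. Over all genes tested, 423 (3.22%) were called lower and 302 (2.3%) higher. *Nfil3* and *Ciart* also had unadjusted p-values under 0.05, both with lower means in RoraEKO, and none of the 7 did so with a higher mean. Of all genes tested, 18.2% had an unadjusted p under 0.05. *Dbp* was also the only gene of the 7 in which every RoraEKO library lay below every control library, which held for 7.54% of all genes tested. None of the 7 had every RoraEKO library above every control library, which held for 5.4%. The median log2 fold change was -0.55 over the 6 genes tested and -0.04 over all genes tested.

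**Figure D1:**
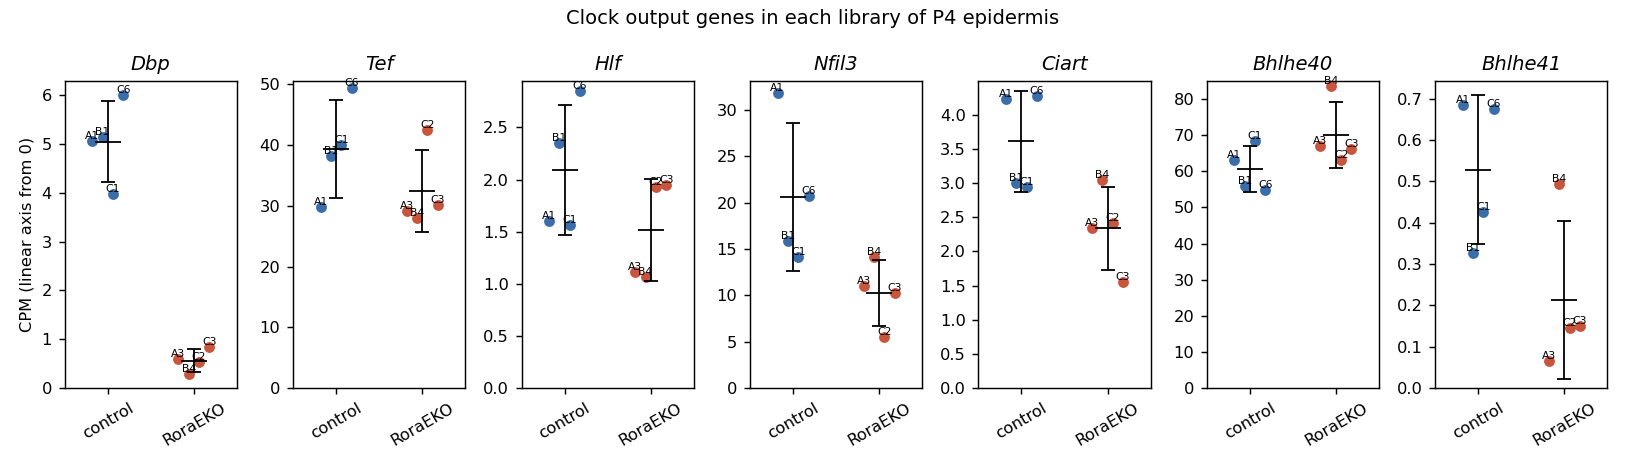
Level of each gene (CPM, linear axis from 0) in each of the 8 libraries, with blue points for control, red points for RoraEKO, the library name above each point, and black bars for the mean ± SD of 4 libraries. The genotypes separate for *Dbp* and overlap for the other 6 genes.

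Of the PAR bZIP genes, *Dbp* was called, and *Tef* and *Hlf* were not. *Dbp* (ENSMUSG00000059824) lies at chr7:45354512-45359627 on the plus strand of GRCm39 and shares 737 bases with *Sphk2* on the opposite strand. It encodes D-box binding protein, whose transcript is among the most strongly cycling in many tissues. In control, *Dbp* was at 5.06, 5.14, 3.98 and 6.01 CPM in A1, B1, C1 and C6. In RoraEKO it was at 0.587, 0.288, 0.530 and 0.849 CPM in A3, B4, C2 and C3. The highest RoraEKO library was thus below the lowest control library, with a wide gap between them.

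The means of *Dbp* were 5.05 ± 0.831 CPM (SD, n = 4) in control and 0.563 ± 0.230 CPM (SD, n = 4) in RoraEKO, which was 11.2% of control. On the log2 scale RoraEKO differed from control by -3.17 (SE 0.296, the standard error of the difference of mean log2 CPM; by the quasi-likelihood test of edgeR, adjusted p = 0.000597), an 8.98-fold difference. By the size of the drop *Dbp* was at rank 56 of the 423 genes called lower. These values rest on 471 counts summed over the control libraries and 44 over the RoraEKO libraries, with 7 to 17 counts in each of the latter. Without control C1 and C6 the log2 fold change was -3.13 (adjusted p = 0.00902), and within the title letters A, B and C the differences of log2 CPM were -2.92, -3.78 and -2.70.

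The motif matches in the *Dbp* gene are shown because it was the gene called, and E-boxes and ROR elements are the sites through which the clock and RORα act. E-boxes were searched as CACGTG, D-boxes as TTATGTAA or TTACGTAA, and ROR elements as TAGGTCA or TGGGTCA, on both strands. The canonical transcript of *Dbp* has 4 exons, and the 5116 bases of the gene held 1 ROR element in intron 1 (chr7:45355269-45355298) and 2 E-boxes in intron 2 (chr7:45357124-45357153 and chr7:45357237-45357266). Each is shown within 30 bases, on the gene's strand and with the motif in capitals.
Dbp intron 1, ROR element: gctagtcttcatTAGGTCActtaggtcttc
Dbp intron 2, first E-box: acattccctcgcCACGTGagtccgccttcc
Dbp intron 2, second E-box: agctgtaggccaCACGTGatgcggccctga
Such matches are frequent in a stretch of this length. Of the first 5116 bases of 21770 protein-coding genes, 70.1% held at least 1 ROR element, 46.6% at least 1 E-box and 15.8% at least 2 E-boxes. No D-box was matched in the *Dbp* gene, against 19.4% of genes with at least 1.

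*Tef* (ENSMUSG00000022389, chr15:81686622-81711064, plus strand) encodes thyrotroph embryonic factor, which binds the same sites as DBP. It was at 29.8, 38.2, 40.0 and 49.4 CPM in control A1, B1, C1 and C6, and at 29.2, 28.1, 42.4 and 30.2 CPM in RoraEKO A3, B4, C2 and C3. Control A1 was as low as most RoraEKO libraries, and RoraEKO C2 stood above the others of its genotype. The means were 39.3 ± 8.04 and 32.5 ± 6.71 CPM (SD, n = 4 each), which gave a log2 fold change of -0.28 (SE 0.203; by edgeR, adjusted p = 0.509). Without control C1 and C6 the log2 fold change was -0.02, which removed most of this difference. With single libraries left out in turn, the log2 fold change ran from -0.39 (without control A1) to -0.12 (without control C6). It was -0.18 without RoraEKO A3.

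*Hlf* (ENSMUSG00000003949, chr11:90227221-90281761, minus strand) encodes hepatic leukemia factor, and it shares 16035 bases with *Mmd* on the opposite strand. Per length it was the least expressed of the PAR bZIP genes in control, and its levels there were 1.60, 2.35, 1.56 and 2.85 CPM in A1, B1, C1 and C6. In RoraEKO A3, B4, C2 and C3 it was at 1.11, 1.07, 1.93 and 1.95 CPM. RoraEKO C2 and C3 lay within the control range, and A3 and B4 below it. The log2 fold change was -0.46 (SE 0.304; by edgeR, adjusted p = 0.533), with means of 2.09 ± 0.624 and 1.51 ± 0.490 CPM (SD, n = 4 each). It ran from -0.61 to -0.25 when 1 library was left out in turn, with -0.25 without control C6 and -0.30 without RoraEKO A3, and was -0.33 without control C1 and C6.

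The level of *Dbp* was also set against those of *Tef* and *Hlf* in each library. On the scale of CPM per kb of canonical transcript, the ratio of *Dbp* to *Tef* was between 0.230 and 0.393 in the control libraries and between 0.0237 and 0.0650 in the RoraEKO libraries. The ratio of *Dbp* to *Hlf* was between 6.67 and 10.04 in control and between 0.853 and 1.68 in RoraEKO. Neither ratio overlapped between the genotypes, and as both share *Dbp* as numerator they are not separate results.

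**Figure D2:**
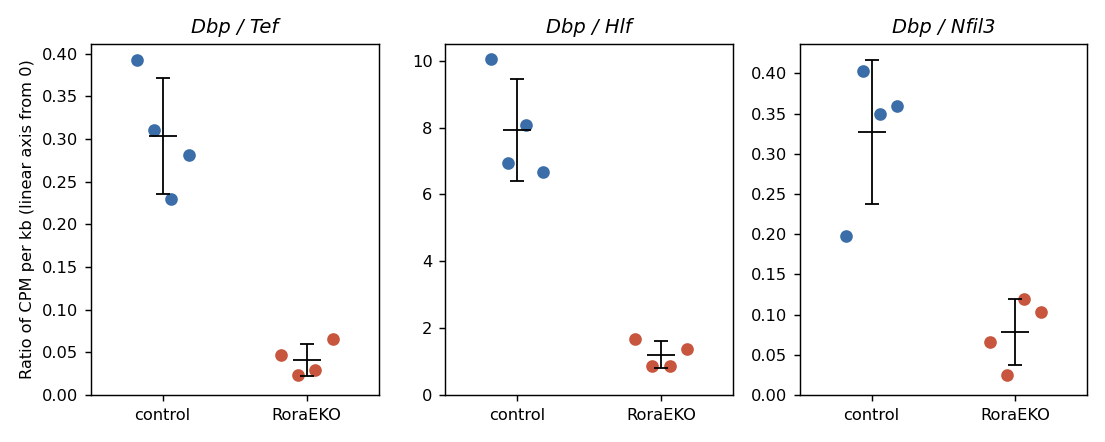
Ratio of the level of *Dbp* to that of *Tef*, *Hlf* and *Nfil3* (CPM per kb of transcript, linear axes from 0) in each library, with blue points for control, red points for RoraEKO and black bars for the mean ± SD of 4 libraries. In all 3 panels every RoraEKO library is below every control library, and all 3 share *Dbp* as numerator, so they are not separate results.

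*Nfil3* (ENSMUSG00000056749, chr13:53121245-53137010, minus strand) encodes the repressor that competes with the PAR bZIP factors at D-boxes. Its levels were 31.8, 15.8, 14.2 and 20.8 CPM in control A1, B1, C1 and C6, and 11.0, 14.2, 5.54 and 10.3 CPM in RoraEKO A3, B4, C2 and C3. The genotypes touched only at control C1 and RoraEKO B4, which were nearly equal, and control A1 was far above the rest. The means were 20.6 ± 7.96 and 10.3 ± 3.57 CPM (SD, n = 4 each), so the RoraEKO mean was 49.7% of control.

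The log2 fold change of *Nfil3* was -1.01 (SE 0.385), which did not pass the cutoffs (adjusted p = 0.112, edgeR quasi-likelihood test). The Wald test of DESeq2 gave -0.98 with an adjusted p of 0.0413, and over all 20 alternatives the adjusted p ran from 0.0413 to 0.257 and the log2 fold change from -1.23 to -0.72. Without control C1 and C6 the log2 fold change was -1.16. Within the letters A, B and C the differences of log2 CPM were -1.52, -0.16 and -1.17. The ratio of *Dbp* to *Nfil3* per length, an activator and a repressor of the same sites, was between 0.198 and 0.403 in control and between 0.0252 and 0.119 in RoraEKO. As *Dbp* is again the numerator, this is not a result separate from the drop of *Dbp*. The ratio of *Tef* to *Nfil3* overlapped, from 0.503 to 1.52 in control and from 1.07 to 4.12 in RoraEKO.

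Promoters were read from the RefSeq table of GRCm38.p6, which had 7 entries for 6 of the genes, and each entry matched GRCm39 at 1 place. *Bhlhe40* had no entry. The window searched ran from 250 bases before the start site to 50 after it. *Nfil3* was the only one of the 6 with a ROR element there, which 6.45% of 32851 promoters hold. It starts at -12 from the RefSeq start, within untranslated exon 1 of the GENCODE canonical transcript (chr13:53135070-53135099). The 250 bases before the RefSeq start (chr13:53135076-53135325) all lie after the first base of that transcript, at 53135367. The *Nfil3* window therefore holds no base upstream of the canonical transcript. The element is on the opposite strand, so the capitals show TAGGTCA as its reverse complement.
Nfil3 promoter, ROR element: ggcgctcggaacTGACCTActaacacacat
No D-box was matched in any of the 7 windows (1.06% of promoters hold one), and the windows of *Dbp* and *Hlf* held none of the motifs. For *Dbp*, the 250 bases before the RefSeq start (chr7:45354421-45354670) run past the first base of its canonical transcript, at 45354512. Most of that window thus lies inside the transcript, and the bases further upstream were not searched.

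*Ciart* (ENSMUSG00000038550, chr3:95785815-95789991, minus strand) encodes the circadian-associated repressor of transcription. It was at 4.22, 3.01, 2.94 and 4.28 CPM in control A1, B1, C1 and C6, and at 2.35, 3.04, 2.41 and 1.55 CPM in RoraEKO A3, B4, C2 and C3. RoraEKO B4 was the only library of its genotype inside the control range. The means were 3.61 ± 0.741 and 2.34 ± 0.612 CPM (SD, n = 4 each), with a log2 fold change of -0.63 (SE 0.243; by edgeR, adjusted p = 0.231). Within the letters A and C the differences of log2 CPM were -0.82 and -0.84, and within B the difference was 0.02. Without control C1 and C6 the log2 fold change was -0.57. All 4177 bases of the gene are shared with *C920021L13Rik*, a noncoding gene on the opposite strand. *Tef*, *Nfil3*, *Bhlhe40* and *Bhlhe41* also share bases with noncoding or unclassified genes on the opposite strand, and *Nfil3* shares 703 bases with *Gm61212* on its own strand, so its reads may be split with it.

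The *Ciart* promoter stood out among the 7 windows for its E-boxes. It held 3. At least 3 are held by 29 of the 32851 promoters (0.0883%), and at least 1 by 7.15%. They start at -116, -58 and -44 from the RefSeq start, with 52 bases between the first and the second and 8 between the second and the third. The 96 bases that hold them are at chr3:95789570-95789665, upstream of the canonical transcript, and are shown on the gene's strand with the E-boxes in capitals.
Ciart promoter, E-boxes: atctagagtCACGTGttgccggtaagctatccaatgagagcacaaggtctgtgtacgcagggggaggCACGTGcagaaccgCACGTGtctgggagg
*Tef* had an E-box in the window of each of its 2 RefSeq entries, at -127 and -138, both upstream of the canonical transcript (chr15:81686735-81686764 and chr15:81695465-81695494). *Bhlhe41* had one at -153, which lies across the first base of its canonical transcript at 145811298 (chr6:145811282-145811311). They are given for comparison with *Ciart*.
Tef promoter, entry 1, E-box: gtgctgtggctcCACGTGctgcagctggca
Tef promoter, entry 2, E-box: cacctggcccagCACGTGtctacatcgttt
Bhlhe41 promoter, E-box: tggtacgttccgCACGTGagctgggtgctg

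The BHLHE repressors did not separate the genotypes. *Bhlhe40* (ENSMUSG00000030103, chr6:108636626-108644502, plus strand) was at 63.2, 55.9, 68.4 and 54.8 CPM in control A1, B1, C1 and C6. It was at 67.1, 83.5, 63.2 and 66.3 CPM in RoraEKO A3, B4, C2 and C3. RoraEKO B4 was above every control library, and the other 3 were within the control range. The means were 60.6 ± 6.38 and 70.0 ± 9.16 CPM (SD, n = 4 each), which gave a log2 fold change of 0.21 (SE 0.117; by edgeR, adjusted p = 0.456), the only value above 0 among the 7 genes. It was 0.11 without RoraEKO B4, 0.33 without RoraEKO C2 and 0.29 without control C1 and C6.

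*Bhlhe41* (ENSMUSG00000030256, chr6:145803969-145811430, minus strand) was close to the limit of detection. It had 18, 6, 9 and 18 counts in control A1, B1, C1 and C6, and 1, 12, 3 and 3 counts in RoraEKO A3, B4, C2 and C3. RoraEKO B4 was within the control range, and the other 3 libraries were below it. In CPM the means were 0.529 ± 0.180 and 0.213 ± 0.191 (SD, n = 4 each), and the mean log2 CPM differed by -1.15 (SE 0.455). The fitted log2 fold change without control C1 and C6 was -1.12. In the alternatives in which it could be tested, its adjusted p was between 0.350 and 0.557 with the edgeR quasi-likelihood test. The ratio of *Bhlhe41* to *Bhlhe40* per length overlapped between the genotypes, from 0.00448 to 0.00941 in control and from 0.000742 to 0.00451 in RoraEKO.

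**Figure D3:**
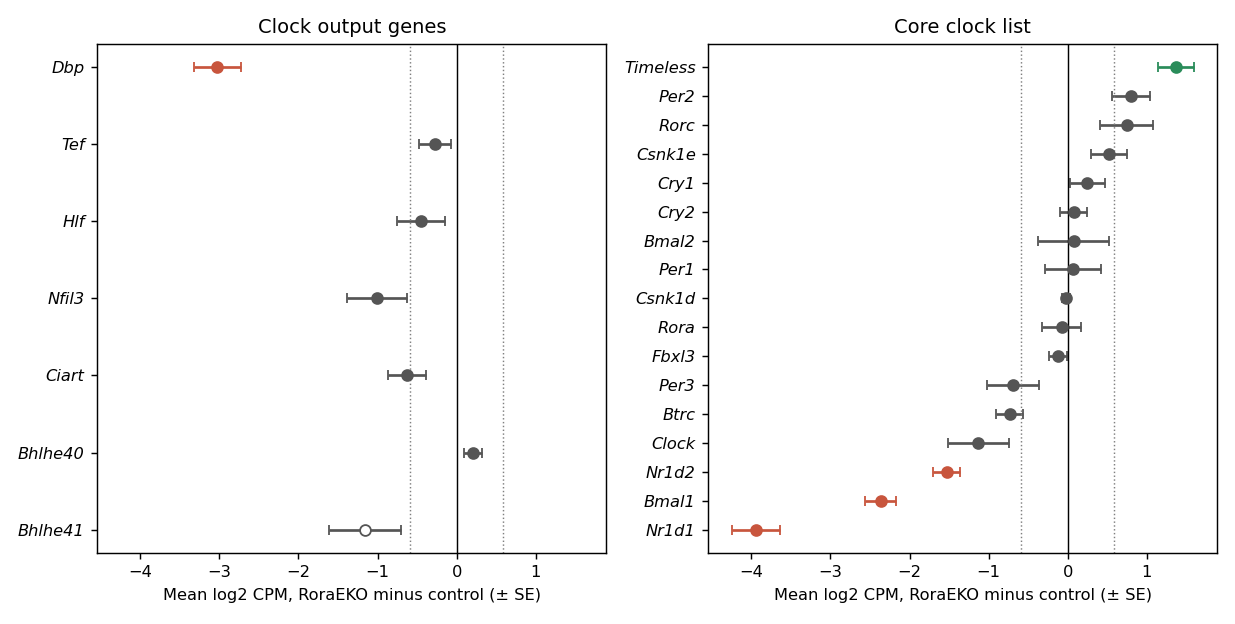
Difference of mean log2 CPM between RoraEKO and control with its standard error (4 libraries of each genotype) for the 7 clock output genes and for the core clock list. Red points were called lower, the green point higher, grey points were not called, the open point was not tested, and dotted lines mark a fold change of 1.5; *Npas2*, at no more than 3 counts in any RoraEKO library, and the 2 core clock genes not tested are left out. *Dbp* is set apart from the other 6 output genes.

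Per kb of canonical transcript, *Bhlhe40* had the highest mean of the 7 genes in control, at 12.9 CPM per kb, although its range overlapped that of *Nfil3*, which was above it in A1 (13.9 against 13.5 CPM per kb). *Tef* and *Nfil3* followed at 9.26 and 9.04 CPM per kb, and these neighbours overlapped. Below them, *Dbp* was at 2.75 CPM per kb, above *Ciart* at 1.83, *Hlf* at 0.359 and *Bhlhe41* at 0.0860 CPM per kb, and no other pair next to each other in this order overlapped. In RoraEKO the order began in the same way, with *Bhlhe40* at 14.9, *Tef* at 7.65 and *Nfil3* at 4.49 CPM per kb. There *Ciart*, at 1.18 CPM per kb, was above *Dbp*, at 0.307 CPM per kb, and the range of *Dbp* overlapped that of *Hlf*, at 0.260 CPM per kb. *Bhlhe41* was last at 0.0347 CPM per kb. Lengths are those of 1 transcript per gene, and the isoforms used in epidermis were not measured.

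**Figure D4:**
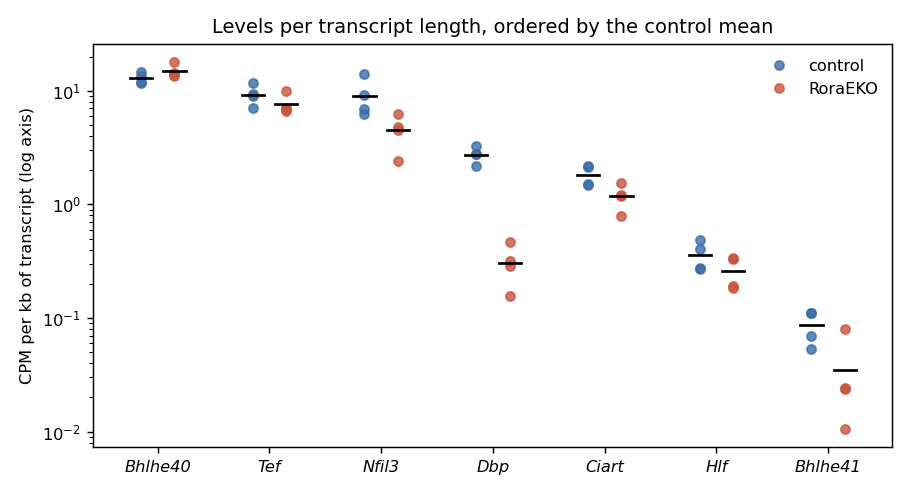
Level per transcript length (CPM per kb, log axis) of each gene in the 4 control (blue) and 4 RoraEKO (red) libraries, with a black line at each mean, ordered by the control mean. *Dbp* moves from 2.75 to 0.307 CPM per kb, to the level of *Hlf*.

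Within a genotype the 7 genes did not move as a block. Among the RoraEKO libraries, B4 was the lowest for *Dbp*, *Tef* and *Hlf* and the highest for *Nfil3*, *Ciart*, *Bhlhe40* and *Bhlhe41*, so it was at an end of the range for all 7. Its log2 CPM deviated from the RoraEKO mean by -0.71 for *Dbp* and by 0.54 for *Nfil3*. Among the controls, C6 was the highest for *Dbp*, *Tef*, *Hlf* and *Ciart*, and A1 for *Nfil3* and *Bhlhe41*. Control C1 was the lowest for *Dbp*, *Hlf*, *Nfil3* and *Ciart*. Without RoraEKO B4 the log2 fold change of *Dbp* was -2.93 (adjusted p = 0.00120) and that of *Nfil3* was -1.21 (adjusted p = 0.0998, edgeR quasi-likelihood test).

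**Figure D5:**
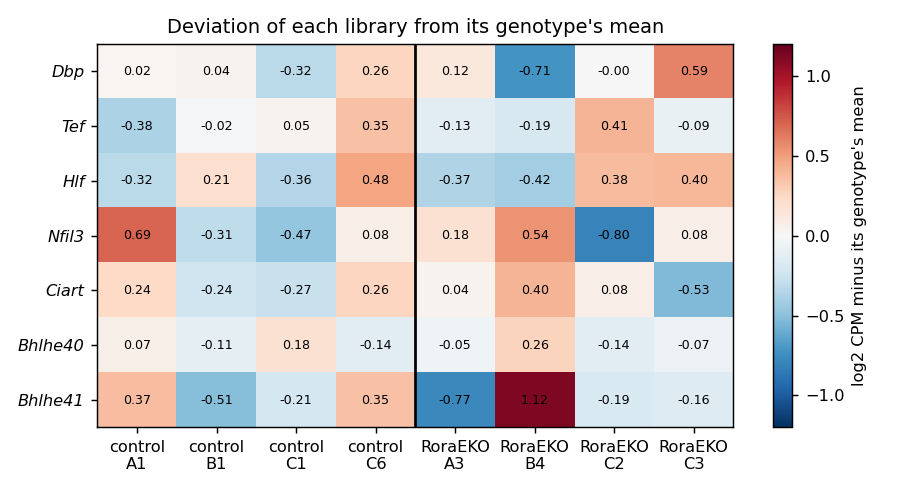
Log2 CPM of each gene in each library minus the mean of its genotype (colour scale and printed values), with control libraries left of the black line and RoraEKO libraries right of it. RoraEKO B4 is negative for the 3 PAR bZIP genes and positive for the 4 repressors.

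The levels of the core clock genes stand beside these. Of 20 listed genes 18 were tested, with 4 called lower and 1 higher, and the background of called genes in either direction was 5.51%. Without control C1 and C6, 4 were called in all. *Bmal1* fell from 17.6 ± 3.74 to 3.32 ± 0.589 CPM (SD, n = 4 each), *Nr1d1*, which encodes REV-ERBα, from 18.2 ± 4.87 to 1.10 ± 0.351 CPM, and *Nr1d2*, which encodes REV-ERBβ, from 8.85 ± 1.98 to 2.96 ± 0.322 CPM. *Npas2*, the partner of BMAL1 that can replace CLOCK, was at 3.66 ± 0.842 CPM (SD, n = 4) in control and at no more than 3 counts in any RoraEKO library, at least 23.9-fold lower at the mean floor of those libraries (0.153 CPM). *Timeless*, better known for its role in DNA replication, rose from 0.924 ± 0.301 to 2.46 ± 0.235 CPM. *Rora*, *Csnk1e* and *Csnk1d*, the most abundant of those that did not pass, had log2 fold changes of -0.11, 0.49 and -0.02.

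Most known targets of the PAR bZIP factors in liver and brain were too low to test in epidermis. Of 10 listed genes 4 were tested, 0 were called lower, against 3.22% of all genes tested, and 1 was called higher, against 2.3%, so a count over 4 genes says little about the list (edgeR quasi-likelihood test; of the 4, *Alas1* and *Cyp2b10* had an unadjusted p under 0.05, both with higher means). *Cyp2b10*, a cytochrome P450 of drug metabolism, rose from 34.9 ± 7.94 to 69.4 ± 3.54 CPM (SD, n = 4 each), which gave a log2 fold change of 0.99 (SE 0.172, adjusted p = 0.00673). *Por*, the electron donor of cytochrome P450 enzymes, was at 89.3 ± 12.6 and 90.9 ± 10.2 CPM. *Alas1*, which starts heme synthesis, had a log2 fold change of 0.48 (adjusted p = 0.225), and *Pdxk*, which makes active vitamin B6, one of -0.46 (adjusted p = 0.354). The median over the 4 tested was 0.25. The other 6 were too low to test.

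Of 10 other genes known to cycle in many tissues 8 were tested, with 2 called lower, against 3.22% of all genes tested, and 1 higher, against 2.3%. *Dtx4*, a ubiquitin ligase gene, fell from 6.85 ± 1.75 to 0.368 ± 0.161 CPM (SD, n = 4 each), which gave a log2 fold change of -4.16 (SE 0.368; by edgeR, adjusted p = 0.000244). *Tsc22d3*, which encodes the glucocorticoid-induced leucine zipper, fell from 17.03 ± 2.496 to 9.01 ± 1.55 CPM. *Fkbp5*, a co-chaperone of the glucocorticoid receptor, rose from 11.97 ± 2.84 to 44.5 ± 30.1 CPM. *Cdkn1a*, *Usp2* and *Nampt* did not pass, with log2 fold changes of 0.11, 0.28 and 0.27. The median over the 8 tested was 0.23, and without control C1 and C6 only 1 of the list passed. *Tsc22d3* and *Fkbp5* are both induced by glucocorticoids, and of the 7 genes listed for that response, 6 were tested and these were the only ones called, in opposite directions, where 5.51% of all genes tested were called. Of those that did not pass, *Dusp1*, *Sgk1* and *Per1* had log2 fold changes of 0.12, 0.65 and 0.05. *Klf9*, named after its values were seen, was the only one of them with an unadjusted p under 0.05. Its log2 fold change was -0.89 (adjusted p = 0.0857, edgeR quasi-likelihood test), and every RoraEKO library was below every control library.

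Other families that share a binding site or an inducer with the 7 genes were counted in the same way, against a background of 5.51% of genes called in either direction and 18.2% with an unadjusted p under 0.05. The CEBP bZIP family had 4 of 5 genes tested and 0 called (edgeR quasi-likelihood test), although *Cebpa* and *Cebpd* had unadjusted p-values under 0.05. *Cebpa*, a regulator of keratinocyte differentiation, was at 178 ± 13.4 and 240.1 ± 28.1 CPM (SD, n = 4 each; adjusted p = 0.0882), and *Cebpg* and *Cebpb* had log2 fold changes of 0.08 each. The HES and HEY family, basic helix-loop-helix repressors related to the BHLHE proteins, had 4 of 10 genes tested and 0 called, with none at an unadjusted p under 0.05; *Hes1*, *Heyl* and *Hes6* had log2 fold changes of -0.22, -0.90 and -0.62. Hypoxia induces *Bhlhe40* in many cells, and of 9 genes of that response 8 were tested and 1, *Bnip3*, was called lower, against 3.22% of all genes tested. An unadjusted p under 0.05 was seen for 4 of the 8, *Bnip3* and *Ankrd37* with lower means and *Egln3* and *Slc2a1* with higher means. The last 3 did not pass, and *Ankrd37* and *Slc2a1*, named after their values were seen, had log2 fold changes of -1.03 and 0.77. *Bnip3* fell from 55.2 ± 12.3 to 15.9 ± 2.62 CPM (log2 fold change -1.79), while *Egln3*, *Ndrg1* and *Vegfa* had log2 fold changes of 0.51, -0.30 and 0.08.

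The genes with the pattern most like that of *Dbp* were found by the root mean square difference of log2 CPM, each gene centred on its mean over the 8 libraries. Over 13146 genes compared, the nearest was *Alox12e*, an epidermal lipoxygenase gene, at a difference of 0.262, with 72.0 CPM in control and 9.39 CPM in RoraEKO. *Mad2l2*, which encodes a subunit of a translesion DNA polymerase, was at 0.277, from 26.4 to 3.12 CPM. *Syt13*, of the synaptotagmin family, was at 0.319, from 0.856 to 0.0288 CPM, below the level of 3 counts in RoraEKO, where its log2 CPM is set largely by the prior count, so its place here depends on that count.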

How the data were processed

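The authors prepared stranded, poly(A)-enriched TruSeq libraries, trimmed the paired reads (Skewer), aligned them to GRCm39 (STAR 2.5.3a) and estimated read numbers per gene (RSEM). The values deposited by the authors are these expected counts for 55416 genes, unscaled for depth or length. The annotation release and the strand setting of the counting are not given in the sources used here, so reads of genes that overlap on opposite strands may not have been told apart.

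Expected counts were rounded. Symbols and positions came from GENCODE M39, in which 54749 identifiers were found. After filterByExpr and TMM scaling, genotypes were compared with 4 libraries each by the legacy quasi-likelihood test in edgeR 4.0.16 (R 4.3.3), with no covariate. CPM use the counts of tested genes and TMM factors. Each SE belongs to a difference between mean log2 CPM values, with a prior count of 2. P-values measure the spread between these libraries, which the study gives as mice, 4 of each genotype, and the floor of 3 counts covers counting error only. The test was tried on simulated data first. The alternatives included DESeq2 1.42.0.

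The 7 genes and the lists were chosen with earlier results of these data known. Named from each list were the genes that passed and up to 3 of the most abundant that did not. Others were named after their values were seen, for an unadjusted p under 0.05. The genes most like *Dbp* were the nearest 3. The study's protein, lipid and barrier data were not used here.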

Additional observations from a re-analysis of the deposited data

Results flagged for a closer look

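The level of *Tef* in RoraEKO C2, 42.4 CPM, stood apart from the other 3 libraries of its genotype. Its gap to the nearest of them was 0.855 of the range of the group, above the 95% critical value of Dixon's test for 4 samples. The levels of the 7 genes in each genotype gave 14 such groups, of which this was the only 1 flagged, and chance flags about 1 in 20. Without RoraEKO C2 the log2 fold change of *Tef* was -0.36 (adjusted p = 0.375, edgeR quasi-likelihood test).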

How the results depend on the processing

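*Dbp* was called lower in all 19 alternatives in which it was tested, with log2 fold changes from -3.44 to -2.93 and adjusted p from 4.15e-17 (DESeq2) to 0.00902. Requiring at least 10 counts in every library removed it from the test, so that 0 of the 7 genes were called there. DESeq2 called 2, the second being *Nfil3* with a log2 fold change of -0.98. No gene of the 7 was called higher in any of the 20 alternatives. With the level of *Xist* added to the model, 472 genes were called in all against 725, and 314 without control C1 and C6, an alternative chosen after seeing the data, in which 1 of the other cycling genes was called in place of 3. Leaving out 1 library in turn gave 457 (control B1) to 896 (control A1), and 475 without RoraEKO C3.

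With the title letter as a replicate block, 999 genes were called in all and *Dbp* had a log2 fold change of -3.19. The block changed no call among the 7 genes. Libraries of the same letter correlated in their deviations from the genotype means by 0.0498 (B) to 0.483 (A), all positive. Those of different letters correlated by -0.517 (control A1 with RoraEKO C2) to 0.282 (control A1 with RoraEKO B4). The letters may mark a pairing, but the value for B was weak and their meaning is not given. The main fit did not pair the libraries by letter. Depth limits *Bhlhe41*, at 1 to 18 counts per library, and *Dbp* in RoraEKO.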
